A study of Mus musculus with 9 samples.

Results

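The genes described here encode the subunits of AP-1 and 2 further immediate-early transcription factors, with 9 members among the 21938 protein-coding genes of the annotation. They are *Fos*, *Fosb*, *Fosl1*, *Fosl2*, *Jun*, *Junb*, *Jund*, *Atf3* and *Egr1*. Each gene was taken with its body and 20 kb on either side in GENCODE M21 on GRCm38 (mm10), and the peaks of 8 lists in these windows were collected. The data came from ChIC-Seq, in which an antibody brings a nuclease to its target and the DNA cut nearby is sequenced, on primary smooth muscle cells of the oviduct of WT mice aged 8 to 12 weeks on D2 (day 2) of pregnancy. There were 3 replicate libraries with an antibody to PBRM1 (also named BAF180, found in SWI/SNF remodelers of the PBAF type) and 3 with an antibody to BRG1 (a catalytic ATPase shared by SWI/SNF remodelers). The 3 control IgG samples of the series were not analysed here. Cells were dissociated with enzymes, passed through a filter, with no sort described, and kept in culture with serum for several hours before the assay, and the labels do not say whether replicates came from separate animals.

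AP-1 is a dimer of basic leucine zipper proteins, either a Jun protein with a Fos protein or 2 Jun proteins, and it recognizes the word TGACTCA. Most of these genes are silent or low at rest and are transcribed within minutes of growth factors, serum, stretch or stress, through SRF bound at CArG boxes with ETS partners and through CREB or ATF proteins bound at CRE elements. In smooth muscle, AP-1 and EGR1 are known for their induction by stretch and mitogens.

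The 6 replicate lists were merged into 82959 regions, of which 55 lay in the windows of the 9 genes. A region was called a promoter region when a summit lay within 2 kb of an annotated start of the gene. There were 18 promoter regions, 16 regions at the promoter of a neighboring gene and 21 distal regions. Of the 55 regions, 22 (40.0%) held a peak in all 6 lists, compared with 15.5% of all regions, and 17 (30.9%) held a peak in 1 list, compared with 47.0% of all regions. The 22 were 11 promoter regions, 5 at the promoter of a neighbor and 6 distal regions. Of all 12830 regions in 6 lists, 8380 were promoter regions. These shares are not matched for class, since windows around genes are rich in promoters, and a matched share was not computed. The libraries held 18126049 to 23992352 fragments for PBRM1 and 14284532 to 15897724 for BRG1. Signal is therefore given in PPM, the pileup (number of fragments over the summit) per 1000000 fragments of the library. Of the smooth muscle markers, *Acta2* had a promoter region in all 6 lists, *Tagln* in 5, *Des* and *Myocd* in 4, *Myh11* and *Actg2* in 1 and *Cnn1* in none. None of 17 markers of epithelium, fibroblasts, endothelium and leukocytes had such a region in all 6 lists. No peak was called at the promoters of *Pax8*, *Epcam*, *Ovgp1*, *Foxj1*, *Lum*, *Cdh5*, *Ptprc*, *Cd68* or *Lyz2*, while the other markers had one in some lists. Among the endothelial markers these were *Kdr* in 5 lists and *Pecam1* in 1, among the fibroblast markers *Pdgfra* and *Dcn* in 3 and *Col1a1* in 1, and among the epithelial markers *Cdh1* in 3, *Krt8* in 2 and *Krt18* in 1.

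**Figure D1:**
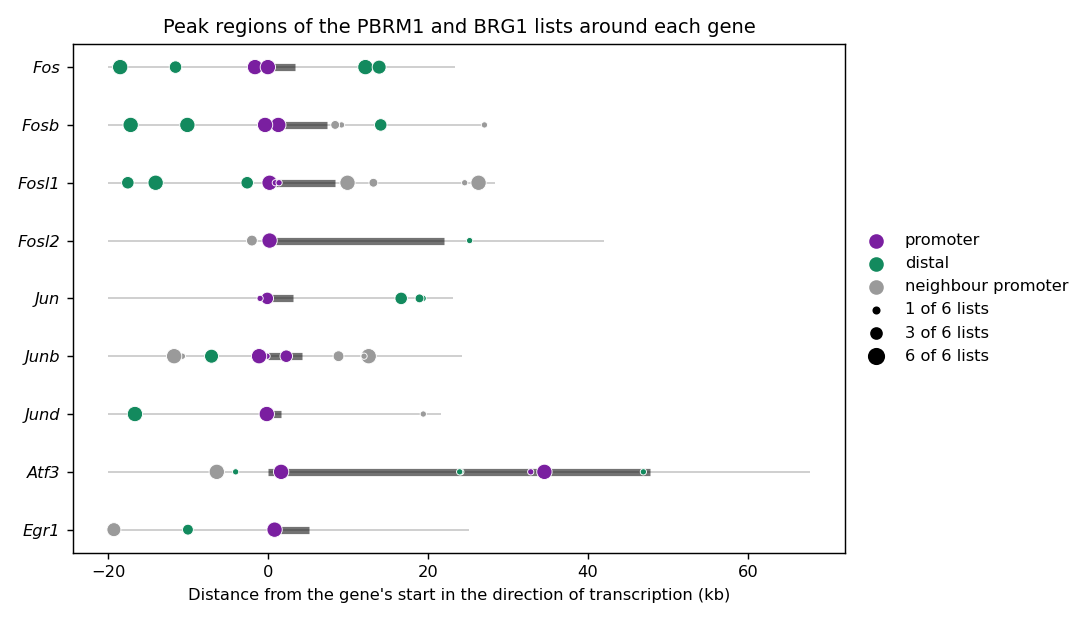
Peak regions around the 9 genes, with distance from the start of the gene in kb on the x axis and 1 row per gene. The thick line is the gene body, the thin line the window, and the size of a point is the number of the 6 replicate lists with a peak. Every gene had a promoter region, and *Fos*, *Fosb*, *Fosl1* and *Jund* also had a distal region in all 6 lists.

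Sequence at the regions is shown first, since it holds some of the words through which such genes are known to be controlled. The sequences were read from GRCm38.p6, 5′ to 3′, and capitals mark the words searched on both strands. Variants of these words were not searched and remain in lower case. The promoter stretches run in the direction of transcription, and the CArG box (the SRF site), the CRE word TGACGTCA, the EGR words GCGTGGGCG and GCGGGGGCG and the CCAAT box are in capitals. They are *Fos* at chr12:85473560-85473619, *Fosb* at chr7:19310252-19310351, *Junb* at chr8:84980029-84980178, *Jund* at chr8:70698709-70698898 and *Jun* at chr4:95052223-95052362.
Fos promoter: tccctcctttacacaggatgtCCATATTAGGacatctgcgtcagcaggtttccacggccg
Fosb promoter: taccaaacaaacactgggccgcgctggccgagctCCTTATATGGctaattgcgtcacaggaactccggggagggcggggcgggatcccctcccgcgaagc
Junb promoter: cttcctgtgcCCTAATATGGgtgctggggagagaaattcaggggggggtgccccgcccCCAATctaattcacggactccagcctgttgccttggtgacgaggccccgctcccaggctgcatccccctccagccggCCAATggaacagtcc
Jund promoter: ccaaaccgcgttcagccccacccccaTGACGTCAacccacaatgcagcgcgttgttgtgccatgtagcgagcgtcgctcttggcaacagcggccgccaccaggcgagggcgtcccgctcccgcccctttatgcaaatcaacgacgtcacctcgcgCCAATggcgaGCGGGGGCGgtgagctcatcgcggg
Jun promoter: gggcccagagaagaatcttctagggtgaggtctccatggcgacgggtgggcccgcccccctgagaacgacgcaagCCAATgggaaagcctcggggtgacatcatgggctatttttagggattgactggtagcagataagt

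The CArG word of *Fos* lay 300 to 309 bp upstream of the gene's start, across the outer edge of the promoter region, and that of *Fosb* lay 257 to 266 bp upstream. In *Junb* it lay 1441 to 1450 bp upstream, also at the edge of the region. The *Jund* stretch held a CRE word 207 to 214 bp upstream, a CCAAT box 81 to 85 bp upstream and an EGR word 67 to 75 bp upstream, and the *Jun* stretch held a CCAAT box 61 to 65 bp upstream.

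Distal stretches are printed on the plus strand, with the AP-1 word in either orientation, the CArG box and the EGR words in capitals. Within 250 bp of the pooled summit, the AP-1 word was in 3 of 6 distal member regions in all 6 lists, compared with 46.1% of all such distal regions. The regions 18.5 kb upstream of *Fos* and 10.1 kb upstream of *Fosb* held neither the AP-1 word nor the CArG box and are not printed. The stretches printed were picked because they hold the AP-1 word, or at *Fos* the CArG box. Their positions are chr12:85486055-85486215 (12.2 kb downstream of the *Fos* start), chr7:19327316-19327395 (17.2 kb upstream of *Fosb*), chr19:5433508-5433607 (14.0 kb upstream of *Fosl1*), chr8:84985631-84985790 (7.06 kb upstream of *Junb*) and chr8:70682269-70682368 (16.6 kb upstream of *Jund*).
Fos 12.2 kb downstream: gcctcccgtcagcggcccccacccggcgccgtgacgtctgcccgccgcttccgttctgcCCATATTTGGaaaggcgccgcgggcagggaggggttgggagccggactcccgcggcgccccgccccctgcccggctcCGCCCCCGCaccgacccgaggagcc
Fosb 17.2 kb upstream: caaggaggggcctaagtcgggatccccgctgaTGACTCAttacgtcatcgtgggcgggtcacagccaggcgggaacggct
Fosl1 14.0 kb upstream: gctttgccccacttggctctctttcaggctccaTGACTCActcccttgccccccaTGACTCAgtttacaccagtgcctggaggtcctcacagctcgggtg
Junb 7.06 kb upstream: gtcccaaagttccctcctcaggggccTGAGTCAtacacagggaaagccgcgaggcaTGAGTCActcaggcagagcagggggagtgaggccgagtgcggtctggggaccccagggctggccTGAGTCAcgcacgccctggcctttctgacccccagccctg
Jund 16.6 kb upstream: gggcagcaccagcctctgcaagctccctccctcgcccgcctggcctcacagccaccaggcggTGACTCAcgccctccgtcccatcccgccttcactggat

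To learn whether the remodeler subunits were found at these promoters reproducibly, replicate support was counted for each gene. A promoter region with a peak in all 6 lists was present at 8 of the 9 genes, compared with 39.4% of protein-coding genes, and *Jun* was the exception. All 9 genes had a promoter region in all 3 BRG1 lists (48.2% of protein-coding genes) and 8 had it in all 3 PBRM1 lists (42.4%). These genes were chosen with earlier results of the data known, so the counts are a description and were not tested. Where a peak was absent from a list, it was not called, which does not show that fragments were absent. A higher signal in more of the cells and in a share of them cannot be told apart in such libraries.

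Among the 8 genes with a promoter region in all 6 lists, the strongest such region was high in PPM within the range of all genes. Its mean PPM had a median of 2.09 (PBRM1) and 3.41 (BRG1) over the members and of 1.31 and 2.00 over the 8645 protein-coding genes with a promoter region in all 6 lists. By PBRM1, the members stood above 68.7% (*Fosl1*) to 94.8% (*Atf3*) of those genes, and by BRG1 above 79.0% (*Egr1*) to 98.5% (*Jund*). The order by BRG1 mean was *Jund*, *Atf3*, *Fos*, *Fosl2*, *Fosb*, *Junb*, *Fosl1*, *Jun* and *Egr1*. The replicate ranges of every pair of neighbors in this order overlapped. By PBRM1 the order was *Atf3*, *Fos*, *Junb*, *Jund*, *Egr1*, *Fosl2*, *Fosb* and *Fosl1*, and there too each pair of neighbors overlapped. Both orders are those of PPM. The order of the same regions by the deposited fold enrichment, which divides by local background, was different for both antibodies.

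**Figure D2:**
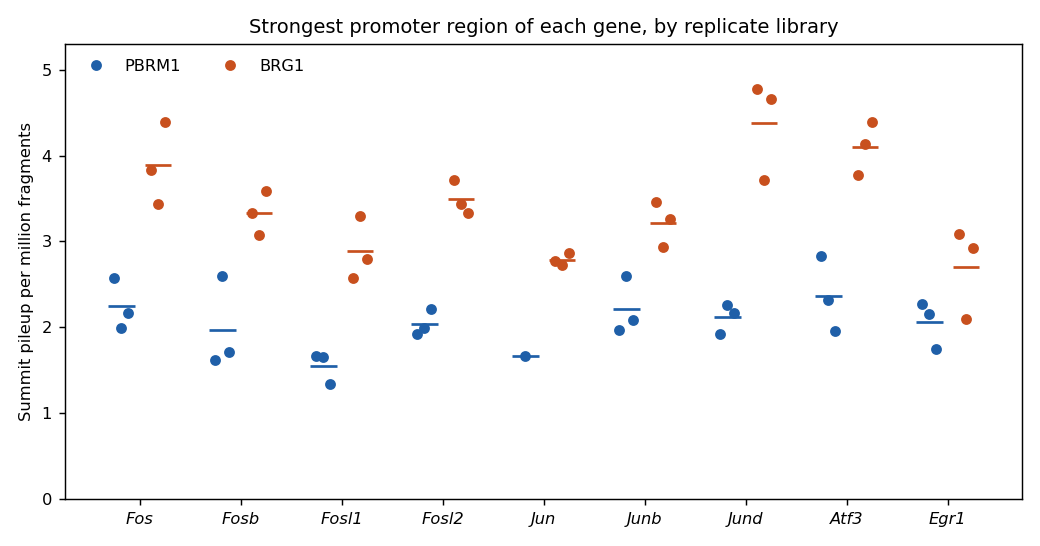
Summit pileup in PPM (y axis) at the strongest promoter region of each gene among those with the most replicate lists. Points are replicate libraries and bars their means. *Jun* shows 1 PBRM1 library because no peak was called in the other libraries. BRG1 values lay above PBRM1 values in every gene but *Egr1*, where they overlapped.

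*Fos* (ENSMUSG00000021250.13, chromosome 12, 85473890 to 85477273, plus strand) encodes the prototype Fos subunit. Its promoter region in intergenic sequence 1621 bp upstream of the start was the stronger of 2 in all 6 lists, with 2.58, 1.99 and 2.17 PPM in PBRM1 replicates 1, 2 and 3 and 3.84, 3.43 and 4.39 in BRG1 replicates 1, 2 and 3. The region at the start itself (summit 13 bp upstream) had 1.36, 1.54 and 1.46 for PBRM1 and 2.26, 2.17 and 2.00 for BRG1. The upstream region was thus higher than the start in every library of both antibodies, and at both regions the antibodies did not overlap. *Fos* also had 2 distal regions in all 6 lists, both intergenic. The region 18.5 kb upstream averaged 2.12 ± 0.0339 for PBRM1 and 3.09 ± 0.369 for BRG1 (SD, n = 3 each). The region 12.2 kb downstream, which holds the CArG box printed above 39 bp from its pooled BRG1 summit, averaged 1.36 ± 0.386 and 2.49 ± 0.381 (SD, n = 3 each). A further region 13.9 kb downstream was called in 5 lists.

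*Fosb* (ENSMUSG00000003545.3, chromosome 7, 19302696 to 19310051, minus strand), the paralog of *Fos* with a long transactivation domain, also had a pair of promoter regions in all 6 lists. The region 361 bp upstream had 1.62, 2.59 and 1.71 PPM in the PBRM1 replicates and 3.33, 3.08 and 3.59 in the BRG1 replicates. PBRM1 replicate 2 stood above the other PBRM1 libraries there, and below all BRG1 libraries. The region 1295 bp downstream of the start, in a noncoding exon of *Fosb*, averaged 1.62 ± 0.504 for PBRM1 and 2.72 ± 0.312 for BRG1 (SD, n = 3 each). Its distal regions at 10.1 and 17.2 kb upstream lay in an exon and an intron of the noncoding gene *D830036C21Rik*. The nearer had 2.12, 1.93 and 2.00 for PBRM1 and 3.40, 2.73 and 4.92 for BRG1, where BRG1 replicate 3 was highest. The farther, which holds the AP-1 word printed above, had 2.07, 2.04 and 1.54 for PBRM1 and 2.45, 2.38 and 2.195 for BRG1. A weaker distal region, 14.1 kb downstream in a UTR of *Rtn2*, was called in all 3 PBRM1 lists and in BRG1 replicate 1.

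*Fosl1* (ENSMUSG00000024912.6, chromosome 19, 5447547 to 5455946, plus strand) encodes FRA-1, a Fos protein without the long transactivation domain. Its promoter region 202 bp downstream of the start, in the annotated UTR, had 1.67, 1.66 and 1.33 PPM for PBRM1 and 2.58, 3.29 and 2.79 for BRG1. The region with 2 AP-1 words 14.0 kb upstream averaged 1.59 ± 0.261 for PBRM1 and 2.29 ± 0.381 for BRG1 (SD, n = 3 each). A pair of weaker promoter regions in the first part of the gene were each called in 1 list, and distal regions at 17.5 and 2.60 kb upstream were each called in 4 lists.

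*Fosl2* (ENSMUSG00000029135.10, chromosome 5, 32135801 to 32157842, plus strand), which encodes the related FRA-2, had its sole promoter region 203 bp downstream of the start, in the UTR. It had 1.92, 1.99 and 2.21 PPM for PBRM1 and 3.71, 3.43 and 3.33 for BRG1, with little spread within either antibody. Its sole distal call, 25.2 kb downstream of the start, was in PBRM1 replicate 3 alone.

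*Jun* (ENSMUSG00000052684.4, chromosome 4, 95049034 to 95052222, minus strand) encodes the founding Jun subunit. Its promoter region, with a summit 82 bp upstream of the start in an intron of the antisense gene *Junos*, had 2.77, 2.73 and 2.86 PPM in the BRG1 replicates and 1.67 in PBRM1 replicate 1. PBRM1 replicates 2 and 3 had no peak over this summit. The pooled PBRM1 list did, with a pileup of 101 fragments, so that at least 68 fragments came from replicates 2 and 3 together, or 1.61 PPM. PBRM1 replicate 3 instead had a peak 985 bp upstream with 1.08 PPM. Both promoter regions also lie within 2 kb of a start of *Junos*, and signal of the 2 genes cannot be told apart. The distal regions of *Jun*, 16.7, 18.9 and 19.4 kb downstream in introns of *Gm12703*, were called in 4, 2 and 1 lists with no value above 0.998.

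*Junb* (ENSMUSG00000052837.6, chromosome 8, 84974484 to 84978718, minus strand) encodes a Jun protein that pairs with Fos proteins and often restrains JUN. Its promoter region in all 6 lists lay 1111 bp upstream, with 1.97, 2.59 and 2.08 PPM for PBRM1 and 3.46, 2.94 and 3.26 for BRG1. At the start (116 bp upstream) a peak was called in BRG1 replicate 2 alone, with 3.01 PPM, although the pooled BRG1 pileup of 128 fragments leaves at least 85 fragments (2.75 PPM) to replicates 1 and 3. A region in a noncoding exon 2290 bp downstream, 114 bp from a second start, was called in all 3 BRG1 lists (2.62 on average) and in PBRM1 replicate 1 (1.47). The intergenic region 7.06 kb upstream, with 3 AP-1 words beginning 10, 54 and 84 bp from the summit, had 2.52, 2.80 and 2.79 for BRG1, 1.97 and 2.04 for PBRM1 replicates 1 and 2, and no peak in PBRM1 replicate 3.

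*Jund* (ENSMUSG00000071076.6, chromosome 8, 70698949 to 70700616, plus strand) encodes the Jun protein that most tissues make without a stimulus. Its promoter region, with a summit 150 bp upstream, had 1.92, 2.26 and 2.17 PPM for PBRM1 and 4.78, 3.71 and 4.66 for BRG1. The lowest BRG1 library was above the highest PBRM1 library, and the BRG1 mean was 2.07 times the PBRM1 mean. This stretch also holds a start of *Gm11175*, and signal of the 2 genes cannot be told apart. The intergenic region 16.6 kb upstream, with an AP-1 word beginning 22 bp from its summit, averaged 1.65 ± 0.0215 for PBRM1 and 2.60 ± 0.289 for BRG1 (SD, n = 3 each).

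*Atf3* (ENSMUSG00000026628.13, chromosome 1, 191170296 to 191218039, minus strand) encodes a stress-induced partner and repressor. Its strongest region in PPM was not at the start of the gene record but 34.6 kb into it, 133 bp upstream of the start of a shorter transcript. There PBRM1 had 2.83, 2.32 and 1.96 PPM and BRG1 had 3.77, 4.13 and 4.39. The region 1646 bp downstream of the record's start, also intronic, had 1.26, 1.16 and 0.959 for PBRM1 and 2.14, 1.47 and 1.73 for BRG1. The internal start was therefore higher in PPM in every library, with no overlap between the ranges of the 2 regions for either antibody. On the deposited fold enrichment the order was reversed in every library. The internal start had 5.49, 4.34 and 4.03 for PBRM1 and 5.26, 5.58 and 5.61 for BRG1. The region 1646 bp downstream had 5.65, 4.90 and 4.69 for PBRM1 and 7.97, 5.96 and 6.14 for BRG1. Its 4 distal regions were each called in 1 list.

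*Egr1* (ENSMUSG00000038418.7, chromosome 18, 34859823 to 34864984, plus strand) encodes a zinc finger factor of the same early response that is not an AP-1 subunit. It had a single broad promoter region of 1923 bp. The median of its replicate summits lay 827 bp downstream of the record's start, in the annotated UTR, and 557 bp upstream of a second start. PBRM1 had 2.27, 2.15 and 1.75 PPM and BRG1 had 3.08, 2.10 and 2.93. The antibodies overlapped here, since BRG1 replicate 2 fell below 2 of the PBRM1 libraries. The replicate summits ran from position 34859870 (BRG1 replicate 3) to 34861055 (PBRM1 replicate 2), so the libraries were compared at different positions of the region. The window around the pooled BRG1 summit held 3 CArG words, beginning 136, 174 and 190 bp from that summit, and an EGR word 58 bp from it. The single distal region, 10.0 kb upstream, was called in 3 lists at 1.01 PPM or less.

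To compare the antibodies across sites, the log2 pileup in PPM was fitted with limma at the 12830 regions found in all 6 lists. Of the 17 promoter and distal regions of the members, 15 were higher with BRG1 at an adjusted p under 0.05, compared with 52.9% of all regions, and none was lower (0.413% of all regions). By class these were 10 of 11 promoter regions, compared with 69.2% of all promoter regions, and 5 of 6 distal regions, compared with 992 of all 4450. In 16 of the 17, all 3 BRG1 libraries lay above all 3 PBRM1 libraries, which was so at 56.8% of all regions. By class this held at 10 of 11 promoter regions (5917 of all 8380) and 6 of 6 distal regions (1374 of all 4450). With 3 libraries against 3 a two-sided exact permutation test of a single region cannot go below 0.1. The whole set of regions was shifted in the same direction, with a median log2 difference of 0.49 (1.40-fold), 0.59 at promoter regions and 0.27 at distal regions. The members' median was 0.79 at 11 promoter regions and 0.59 at 6 distal regions. The regions that did not pass were the *Egr1* promoter (0.38 ± 0.18 SE, adjusted p = 0.063 by limma) and the *Fosb* region 17.2 kb upstream (0.32 ± 0.18 SE, adjusted p = 0.12 by limma).

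With the medians of the 6 libraries set equal, the calls over all regions fell from 6793 higher and 53 lower to 314 higher (2.45%) and 288 lower (2.24%). On this scale 1 of the 17 member regions was called, the *Jund* promoter, and none was lower with BRG1. Its log2 difference was 1.04 ± 0.17 SE on the PPM scale (adjusted p = 1.22e-06 by limma) and 0.58 ± 0.15 SE after centring (adjusted p = 0.0135 by limma). The next largest centred differences were 0.43 at the *Fos* region 12.2 kb downstream (adjusted p = 0.137 by limma) and 0.43 at the *Fosl1* promoter (adjusted p = 0.101 by limma). The differences of 15 of the 17 regions were above 0 after centring (10 of 11 promoter and 5 of 6 distal regions, compared with 67.5% of all promoter and 23.7% of all distal regions, or 52.3% of all regions), and those of the *Egr1* promoter (-0.084) and of the *Fosb* region 17.2 kb upstream (-0.14) turned below 0. At an unadjusted p under 0.05, 8 of the 17 were higher and none lower, compared with 11.9% and 9.63% of all regions. The *Jund* call was lost on the deposited fold enrichment, which divides by local background (0.25, adjusted p = 0.342 by limma). On the centred scale it was also lost without PBRM1 replicate 1 (0.45, adjusted p = 0.0932 by limma), without BRG1 replicate 1 (0.47, adjusted p = 0.119) and without BRG1 replicate 3 (0.56, adjusted p = 0.0627). The member regions called differed by scale. On the fold enrichment, not centred, they were the *Fos* region 12.2 kb downstream (0.54, adjusted p = 0.0363 by limma) and the *Fosl1* promoter (0.50, adjusted p = 0.0417 by limma). Of all 12830 regions, 1371 were called higher with BRG1 on that scale.

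**Figure D3:**
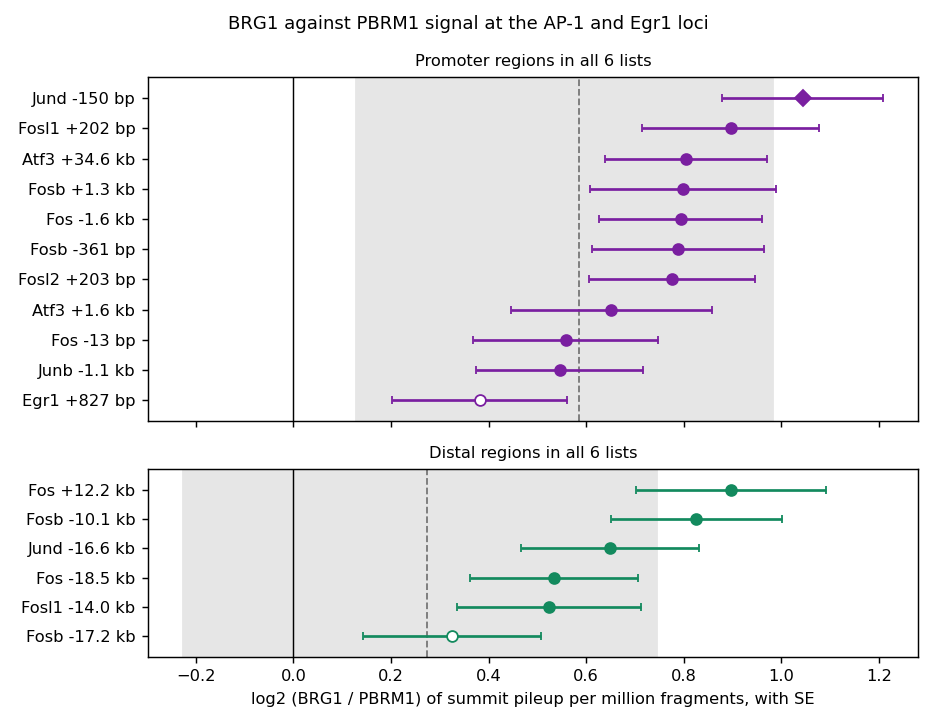
Log2 ratio of BRG1 to PBRM1 pileup in PPM (x axis) with its SE at the 11 promoter and 6 distal member regions found in all 6 lists, labelled by distance from the gene's start. Filled points passed an adjusted p under 0.05, the diamond (*Jund*) passed after centring as well, grey bands span the central 90% of all promoter or distal regions and dashed lines their medians. Of the distal points, *Fos* 12.2 kb downstream and *Fosb* 10.1 kb upstream lay beyond the band, as did the *Jund* promoter among the promoter points.

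The position of the summit was compared between the pooled lists. In 9 of the 17 regions the PBRM1 and BRG1 summits were at most 20 bp apart, with a median of 20 bp. The widest separation was 557 bp, at the *Fosb* region 17.2 kb upstream. The replicate summits did not split by antibody there, since those of all 3 PBRM1 libraries and of BRG1 replicates 1 and 2 lay at the end of the pooled BRG1 summit, and that of BRG1 replicate 3 at the other end.

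A distal region in all 6 lists was present near 4 of the 9 genes (*Fos*, *Fosb*, *Fosl1* and *Jund*), compared with 13.9% of protein-coding genes. In windows of 250 bp to either side of the stronger pooled summit in PPM, the AP-1 word occurred in 3 of the 6 distal member regions, compared with 46.1% of all 4450 distal regions in 6 lists. It occurred in 4 of the 13 distal member regions with fewer lists and a pooled peak, at *Fosl1*, *Jun*, *Junb* and *Atf3*. The share over all distal regions with fewer lists was not counted, so this count cannot be set against a background. The *Jun* regions 18.9 and 19.4 kb downstream had the same pooled summit, and so had the *Atf3* regions 24.0 and 24.1 kb downstream. Their windows, without the word, were therefore counted more than once. Of the 11 promoter regions, 3 (*Fosl1*, *Fosl2* and *Atf3*) held it, compared with 8.38% of all promoter regions. The CArG box was found at 3 of 11 promoter regions (*Fosb*, *Junb* and *Egr1*), compared with 2.08% of all, and the EGR words at 2 of 11 (*Jund* and *Egr1*), compared with 7.83%. The CRE word was found in 1 of 11 (*Jund*), compared with 4.70%, and the ETS word CCGGAAG in 1 of 11, compared with 24.4%. The CCAAT box was found in 6 of 11, compared with 51.4%. In narrower windows of 100 bp to either side, the CArG box was in 0 of 11 promoter regions, compared with 0.859% of all. These matches are descriptions of letters and say nothing of whether a factor was bound.

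**Figure D4:**
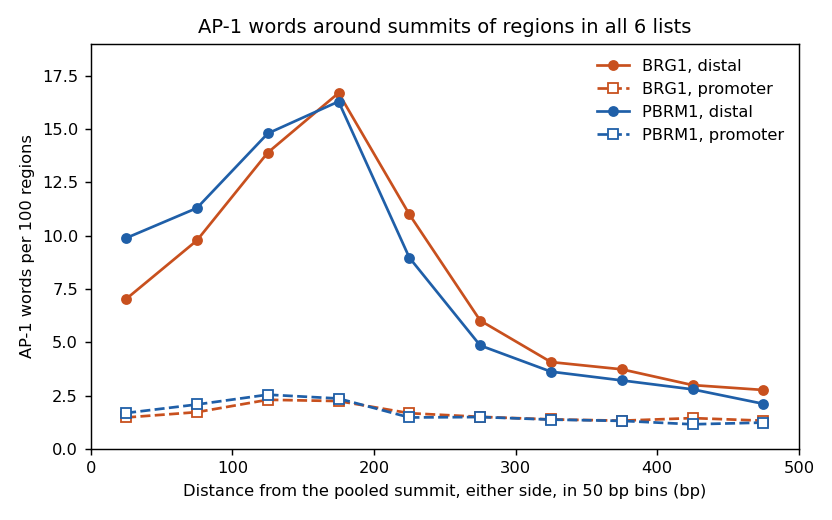
Number of AP-1 words per 100 regions (y axis) in 50 bp bins of distance from the pooled summit, both sides combined (x axis), for 4450 distal (filled) and 8380 promoter regions (open) in 6 lists. In distal regions both antibodies rose from 9.89 (PBRM1) and 7.03 (BRG1) in the first bin to 16.3 and 16.7 at 150 to 199 bp.

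The AP-1 word was placed beside the summit more often than under it. Over all distal regions in 6 lists, it occurred 16.3 times per 100 regions at 150 to 199 bp from the PBRM1 summit and 16.7 times from the BRG1 summit, compared with 9.89 and 7.03 within 50 bp. Beyond 450 bp it occurred 2.11 and 2.76 times. The word was in 47.4% of windows at PBRM1 summits and 45.3% at BRG1 summits, compared with 9.82% and 9.49% of windows 2 kb away. In the member regions, the words lay nearer at *Jund* (22 bp) and *Fosl1* (43 and 65 bp), and 122 bp from the pooled BRG1 summit at *Fosb*, where the pooled PBRM1 summit lay apart.

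Genes that act with AP-1 were examined in the same lists. Of all promoter regions in 6 lists, 69.2% were higher with BRG1 on the PPM scale and 3.54% after centring. A promoter region in all 6 lists was present at 39.4% of protein-coding genes. Of 13 other genes of bZIP partners, 10 had a promoter region in all 6 lists, and *Batf*, which encodes a partner in lymphocytes, had no promoter peak in any list. Of 10 fitted, 9 were higher with BRG1 on the PPM scale, among them *Mafa* (0.76), and none after centring by limma, with 1 (*Atf2*, -0.36) at an unadjusted p under 0.05. Of 22 other immediate-early genes, 14 had such a region, 13 were higher with BRG1, and 4 after centring. The largest differences were at *Klf6* (1.33, and 0.86 after centring, adjusted p = 0.000218 by limma), an early zinc finger factor, and at *Btg2* (1.02, and 0.55 after centring, adjusted p = 0.0352 by limma), an antiproliferative early gene. Of 18 genes of the signaling that leads to AP-1, 15 had such a region, 11 were higher with BRG1 and 1 after centring. That gene was *Mapk9*, which encodes the kinase JNK2 (1.18, and 0.71 after centring, adjusted p = 0.00787 by limma), followed on the PPM scale by *Rps6ka3* (0.95), which encodes a ribosomal S6 kinase. No gene of these lists was lower with BRG1 at an adjusted p under 0.05 on either scale by limma. After centring, 4 of the 14 immediate-early and 5 of the 15 signaling genes had an unadjusted p under 0.05. Over all regions these shares were 11.9% higher and 9.63% lower. The median BRG1 pileup in PPM of the fitted genes was 2.19, 2.81 and 2.31 in these 3 lists.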

How the data were processed

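ChIC-Seq peak lists of 3 PBRM1 and 3 BRG1 libraries and of both antibodies pooled were used. Narrow peaks had been called on paired-end fragments, per the file headers, with MACS 2.2.7.1, a q cutoff of 0.05, no control file and a local background over 10 kb. The submitters' processing notes name cutadapt, Bowtie2 and MACS2. The deposited pileup is unscaled signal at the summit, the deposited fold enrichment is its ratio to local background, and the deposited −log10 q was used as a filter only. Without a control in the calling, cutting that does not depend on the antibody cannot be told apart from binding. Signal in IgG samples was not analysed here.

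Peaks sharing 1 bp were merged. Log2 PPM (pileup per 1000000 header fragments) was fitted by limma 3.58.1 (R 4.3.3, trended eBayes, Benjamini-Hochberg over 12830 regions, BRG1 minus PBRM1), tested on simulated data. GENCODE M21 and GRCm38.p6 sequence were read with pandas 2.3.3 and pysam 0.24.0 under Python 3.11.15. Alternatives were another scaling, a replicate block, −log10 q of at least 5, chained summits, other windows and each library left out. The members and lists were chosen with earlier results of these data known. Text names all members, their promoter and 3 strongest distal regions, and up to 2 genes of each other list by size of a called difference, with any gene lacking promoter peaks. A gene that this rule selects is not reported here. P-values measure the spread between these libraries, which may be technical.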

Additional observations from a re-analysis of the deposited data

How the results depend on the processing

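Scaling moved the calls between antibodies most. Over all regions 6793 were higher and 53 lower with BRG1 in PPM, 314 and 288 with median centring, and 1371 and 28 on the deposited fold enrichment, with 15, 1 and 2 of the 17 member regions higher. Centring turned the *Fosb* region 17.2 kb upstream to -0.14 and the *Egr1* promoter to -0.084, and fold enrichment turned the *Junb* promoter to -0.10 and the *Egr1* promoter to -0.23. The cause was not tested. Deviations of same-numbered libraries from their group means were hardly correlated (6.19e-06, 0.00374 and -0.029 for numbers 1, 2 and 3). This cannot show whether such libraries shared an animal or culture, which the labels do not say. A replicate block changed no member call in PPM, and a replicate block with centring gave 360 higher, 322 lower and 1 member region. At a −log10 q of at least 5, 12 regions were lower, fewer regions being tested. Leaving out 1 library gave 5182 to 6844 higher, 31 to 77 lower (33 without PBRM1 replicate 1, 31 without PBRM1 replicate 2 and 34 without BRG1 replicate 3) and 12 to 16 member regions.

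Alternatives on the centred scale were chosen after seeing the data. There, 80 were higher and 178 lower at the stricter q, 196 higher with chained summits, and 49 and 54 on fold enrichment, with 0, 1 and 0 member regions. Leaving out 1 library gave 102 to 316 higher, 129 to 334 lower and 0 to 2 member regions. The *Jund* promoter was called in 5 of 10 centred fits, with log2 differences of 0.04 to 0.70 and adjusted p from 0.00963 to 0.945 by limma.

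Promoter regions in all 6 lists were found at 7 or 8 member genes under the alternatives tried on the replicate lists, and promoter peaks in both pooled lists at 9. Distal regions in all 6 lists numbered 6, and 2 with 10 kb flanks, 11 with 50 kb flanks, 11 with promoters of neighbors included, and 6 to 7 without 1 library. With windows of 100 bp to either side, AP-1 words were in 0 of 11 promoter member regions, compared with 2.9% of all promoter regions. They were in 2 of 6 distal member regions, compared with 15.5% of all distal regions in 6 lists. The effect of depth on calls in single lists was not tested.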

Other observations

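The windows of the 9 genes also held 5 promoter regions of neighboring genes in all 6 lists. *Hook2*, upstream of *Junb*, had 1.82 ± 0.00824 PPM for PBRM1 and 2.21 ± 0.101 for BRG1 (SD, n = 3 each), a log2 difference of 0.28 (adjusted p = 0.185 by limma). *Rnaseh2a*, on the other side of *Junb*, had 2.09 ± 0.118 and 3.18 ± 0.707 (SD, n = 3 each), a difference of 0.58 (adjusted p = 0.00451 by limma). Near *Fosl1*, *Ccdc85b* differed by 0.56 and *Efemp2* by 0.61 (adjusted p = 0.0115 and 0.00709 by limma). *D730003I15Rik*, upstream of *Atf3*, differed by 0.38 (adjusted p = 0.0907 by limma). After centring none of the 5 was called, at an unadjusted p under 0.05 in 0 of them.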
